A study of Mus musculus with 16 samples.

Results

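Bone morphogenetic proteins (BMPs) and transforming growth factor beta (TGF-beta) are secreted signals of one family, and 56 genes of their pathways, of 18097 on the array, were followed in mouse hindlimb muscle. Members were taken by gene symbol: the BMPs, the growth and differentiation factors (Gdf), Tgfb1 to Tgfb3, the inhibin and activin subunits, the latent TGF-beta binding proteins (Ltbp1 to Ltbp4), the Bmpr, Acvr and Tgfbr receptors, the Smads, Id1 to Id4, and the antagonists Nog, Grem1, Fst and Chrd. They had 81 of the 25697 probes on an Illumina expression array. The 58 probes of 41 genes that 3 or more arrays detected at p under 0.05 were tested, or 71.6% of the member probes beside 57.5% of all probes.

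Female mice had a spinal cord injury (SCI) at the low thoracic level or sham surgery. The muscle received either cardiotoxin (CDTX), a venom component that kills muscle fibres, or saline, and was taken whole 2 days after surgery. The 4 groups, with 4 arrays each, are SCI+CDTX and SCI+Saline, and Sham+CDTX and Sham+Saline. The aim given by the series is to find genes that promote neurogenic heterotopic ossification, bone that grows in muscle following damage to the nervous system, and SCI+CDTX is the group in which it develops. Strain, age and genotype are not given in the sources used here, and the labels do not say whether each array is a separate mouse, so p-values measure the spread between these arrays. The submitters left SCI+CDTX array 2 out of their final analysis, and levels and tests here are from the other 15 arrays (3 SCI+CDTX arrays) unless 16 are named.

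As background, BMP and TGF-beta dimers bind pairs of type I and type II receptor kinases. BMP receptors phosphorylate Smad1, Smad5 and Smad9, TGF-beta and activin receptors phosphorylate Smad2 and Smad3, and both sets join Smad4 in the nucleus. BMP signalling switches on the Id genes, which block muscle differentiation, and can turn mesenchymal cells of muscle towards cartilage and bone. TGF-beta is stored in the matrix with latent binding proteins, drives fibrosis in injured muscle, and is released by macrophages among other cells. An overactive Acvr1, a BMP type I receptor, causes fibrodysplasia ossificans progressiva, an inherited form of heterotopic ossification.

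Some arrays stood apart in a way that touches every comparison with Sham+CDTX. A probe difference score was made from 2785 genes outside the pathway as the main axis along which the 2 brightest probes of a gene differed between arrays, and it held 33.0% of that variance. It was 0.345 to 0.388 on the Sham+CDTX arrays and 0.283 on SCI+CDTX array 2. It lay between -0.264 and -0.0616 on the other 11 arrays. Within groups it spread most in SCI+CDTX, through array 2 (0.283 against -0.114 to -0.0616). With all Sham+CDTX arrays high, the score as a covariate is hard to separate from that group. Its fitted slope leans largely on SCI+CDTX array 2. A call lost or turned with the score in a comparison with Sham+CDTX therefore does not decide whether the groups differ. For CDTX in SCI mice the covariate largely offsets SCI+CDTX array 2, so that fit stays close to the one without this array. For SCI without CDTX the scores of the groups overlapped, at -0.264 to -0.0800 in SCI+Saline and -0.256 to -0.163 in Sham+Saline. A call kept with the score in either of these comparisons is therefore a weak check. All SCI arrays were on one slide and all sham arrays on another, so surgery and slide cannot be told apart. On each slide the CDTX arrays took sections A to D and the saline arrays E to H, so injection and section cannot be told apart. Mean raw intensity was 230.5 to 277 on the Sham+Saline arrays and 319.9 to 373.1 on the others, and 11114 to 13694 probes were detected per array.

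Muscle fibre markers (6 of 6 tested, among them Ckm and Acta1) summed to 73400 to 87700 normalized intensity units across the 15 arrays. None was called for SCI, with or without CDTX, or for CDTX given after SCI. For CDTX given after sham surgery, 1 was called higher and 1 lower (0 and 0 with the score). With median scaling in place of quantile normalization, CDTX lowered 2 of 6 after SCI and 3 of 6 after sham surgery, and raised 0. The narrow range of the sums therefore does not decide whether fibre RNA fell with CDTX. Macrophage markers (6 of 6, among them Cd68 and Adgre1) summed to 10800 to 16000 in SCI+CDTX and 12100 to 14600 in Sham+CDTX, and to 670 to 3260 in SCI+Saline and 775 to 1650 in Sham+Saline. Fibroadipogenic progenitor markers (6 of 6, among them Pdgfra) summed to 6080 to 8230 in SCI+CDTX and 8600 to 9210 in Sham+CDTX, and to 2730 to 4660 in SCI+Saline and 3690 to 6000 in Sham+Saline. Neutrophil markers (4 of 6 tested) varied within the saline groups, with sums of 1980 to 12000 in SCI+Saline and 90.5 to 9660 in Sham+Saline. Of the osteoblast and chondrocyte markers, only Col2a1 of 5 passed the detection filter. All these sums add unlogged intensities, so the brightest genes set most of each. Lyz2 was the brightest macrophage marker and Ly6a the brightest progenitor marker in each group. Pygm, the dimmest fibre marker, had a mean log2 intensity of 12.19 in Sham+Saline and 10.87 in Sham+CDTX, and moves its sum little. In whole muscle, fewer cells of a type and less RNA per cell cannot be told apart, and the part these markers have in the results that follow was not tested.

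Calls are at a Benjamini-Hochberg adjusted p under 0.05 over all 14763 tested probes, from limma. CDTX in SCI mice (SCI+CDTX minus SCI+Saline) changed 21 of 58 member probes, 10 higher and 11 lower, where 42.9% of all probes were called. CDTX in sham mice (Sham+CDTX minus Sham+Saline) changed 26, 13 higher and 13 lower, where 48.9% of all were called. SCI without CDTX (SCI+Saline minus Sham+Saline) changed 22, 13 higher and 9 lower, where 29.5% of all were called. SCI with CDTX (SCI+CDTX minus Sham+CDTX) changed 14, 8 higher and 6 lower, where 29.8% of all were called. The interaction, the CDTX effect in SCI mice minus that in sham mice, was called for 17, 9 positive and 8 negative, where 23.6% of all were called. These are 36.2%, 44.8%, 37.9%, 24.1% and 29.3% of the member probes. Among all probes the calls for CDTX in SCI mice were 20.4% higher and 22.5% lower. Counting only called probes whose groups did not overlap, the members numbered 18 for CDTX in SCI mice (38.9% of all probes), 23 for CDTX in sham mice (41.7%), 16 for SCI without CDTX (21.4%) and 13 for SCI with CDTX (28.3%). The median member log2 fold change lay between -0.05 and 0.05 in each comparison, beside -0.05 to 0.01 for all probes.

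With all 16 arrays and the score as a covariate, 20 of the 21 calls for CDTX in SCI mice and 20 of the 22 for SCI without CDTX were kept in the same direction. Among all called probes 90.2% and 87% were kept. Given how the scores lie in these groups, most calls were likely to be kept, so this is a weak check. Only 7 of 26 calls for CDTX in sham mice, 1 of 14 for SCI with CDTX and 1 of 17 interactions were kept. Among all called probes the kept shares were also low, at 28.4%, 3.71% and 0.947%. Median scaling in place of quantile normalization moved the median of all probes to 0.06, 0.32, 0.17, -0.02 and -0.24 in the order of the comparisons above. It split the member calls 16 higher and 7 lower, 21 and 5, 20 and 7, 7 and 7, and 6 and 13, and its share of higher calls among all probes was 64.9%, 85.1%, 86.4%, 44.9% and 17.7%, beside 47.6%, 47.3%, 50.3%, 49.9% and 51% under quantile normalization.

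**Figure D1:**
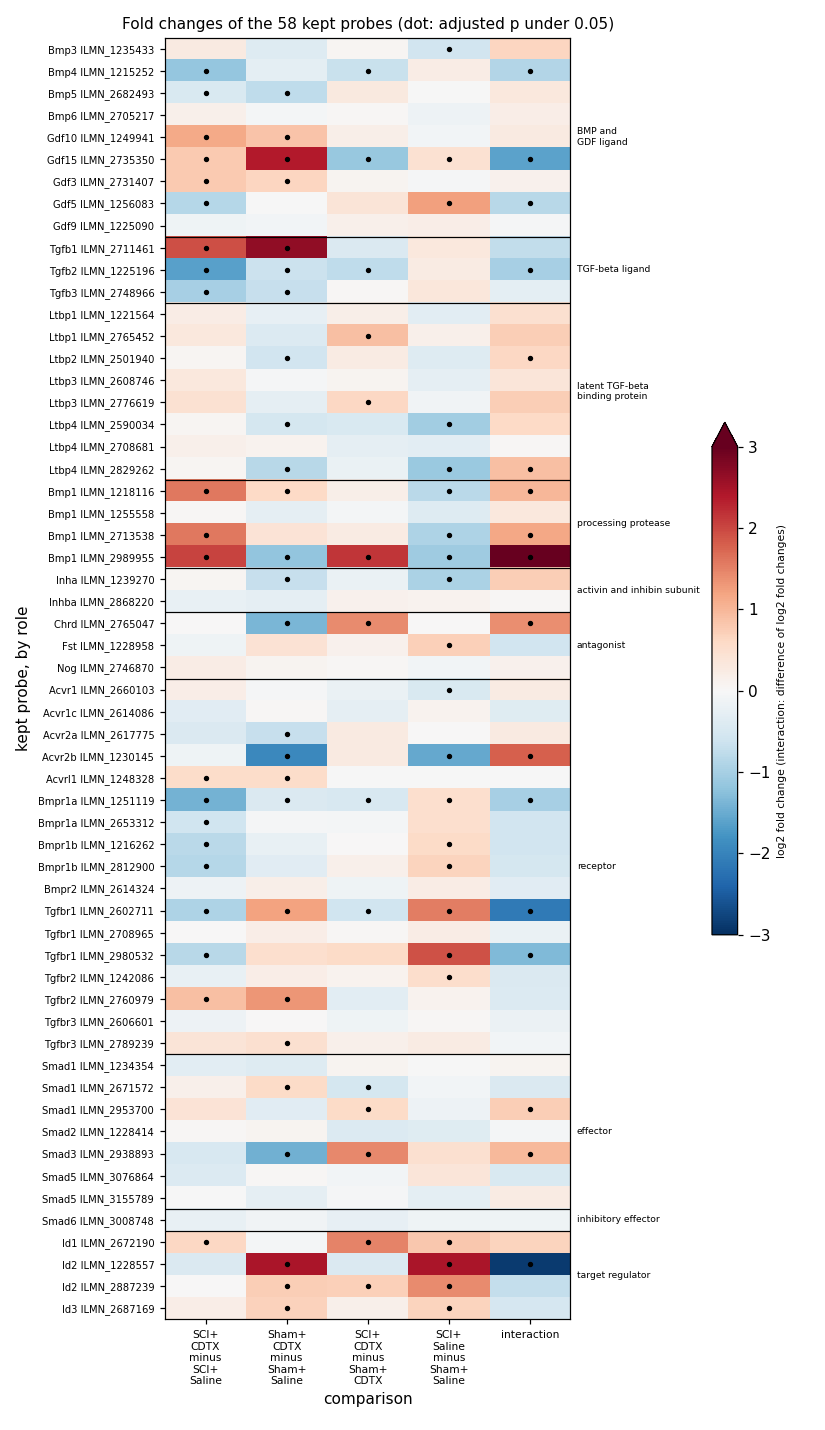
Log2 fold change of each of the 58 tested probes (rows, by role) in the 5 comparisons (columns), with red for higher, blue for lower and a dot for an adjusted p under 0.05. The colour scale ends at 3, which the interaction of Bmp1 probe ILMN_2989955 (3.21) passes, and probes near background are shown at their fitted value; Tgfb1 is red in both CDTX columns and Tgfb2 and Tgfb3 are blue there.

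The TGF-beta ligands split under CDTX: Tgfb1 rose after either surgery, and Tgfb2 and Tgfb3 fell in SCI mice. In sham mice Tgfb2 and Tgfb3 were also called lower, but their direction turned under median scaling (0.18 and 0.15). By gene, taking the brightest tested probe, 16 of 41 members were called for CDTX in SCI mice (44.3% of all genes) and 22 of 41 for CDTX in sham mice (50.6%), 10 higher and 12 lower (23.8% and 26.8% of all genes). SCI without CDTX gave 15 of 41 (30.6%) and SCI with CDTX 11 of 41 (32.2%). Tgfb1 (ILMN_2711461, chromosome 7) encodes the main inflammatory form of TGF-beta. Its log2 normalized intensity was 7.58, 8.22 and 7.77 on the SCI+CDTX arrays and 5.74, 6.23, 5.72 and 6.03 on the SCI+Saline arrays. It was 7.90, 8.80, 8.51 and 7.92 on the Sham+CDTX arrays and 5.74, 5.70, 5.28 and 5.78 on the Sham+Saline arrays. Every CDTX array lay above every saline array. The log2 fold change was 1.93 ± 0.22 (SE; adjusted p = 3.49e-06, limma) in SCI mice and 2.66 ± 0.21 (adjusted p = 1.58e-08) in sham mice, and 1.95 and 3.47 with the score. The macrophage markers, 6 of 6 called higher in both comparisons with medians of 2.70 and 3.21, moved the same way. The differences with SCI, with and without CDTX, were -0.43 and 0.31 and not called.

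Tgfb2 (ILMN_1225196, chromosome 1), another TGF-beta form, went the other way. It was 5.60, 4.99 and 5.46 in SCI+CDTX, 7.19, 6.90, 7.21 and 6.61 in SCI+Saline, 6.13, 6.13, 5.99 and 6.19 in Sham+CDTX, and 6.55, 6.49, 7.11 and 6.82 in Sham+Saline. Within each surgery the CDTX arrays were all below the saline arrays, and the SCI+CDTX arrays were the lowest of all. CDTX changed it by -1.63 ± 0.19 (adjusted p = 3.5e-06) in SCI mice and by -0.63 ± 0.17 (adjusted p = 0.00536) in sham mice, with an interaction of -0.99 ± 0.26 (adjusted p = 0.00843). The excluded SCI+CDTX array 2 read 6.52, above the other 3, and over all 16 arrays the interaction was -0.72 (adjusted p = 0.183), while with the score it was 0.28 (adjusted p = 0.852). Under median scaling the sham value turned to 0.18. The difference between SCI+CDTX and Sham+CDTX (-0.76, adjusted p = 0.00482) was -0.48 (adjusted p = 0.181) over 16 arrays and 0.39 (adjusted p = 0.685) with the score.

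Tgfb3 (ILMN_2748966, chromosome 12), the remaining TGF-beta form, was 7.03, 6.29 and 6.56 in SCI+CDTX against 7.65, 7.31, 7.62 and 7.89 in SCI+Saline, and these groups did not overlap. It fell by 0.99 ± 0.22 on the log2 scale in SCI mice (adjusted p = 0.0012). In sham mice it was 6.93, 6.61, 6.54 and 6.31 with CDTX and 7.60, 7.44, 6.74 and 7.36 with saline, which overlapped through 1 array on each side, and the difference was -0.69 ± 0.20 (adjusted p = 0.00795), -0.44 (adjusted p = 0.601) with the score and 0.15 under median scaling.

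**Figure D2:**
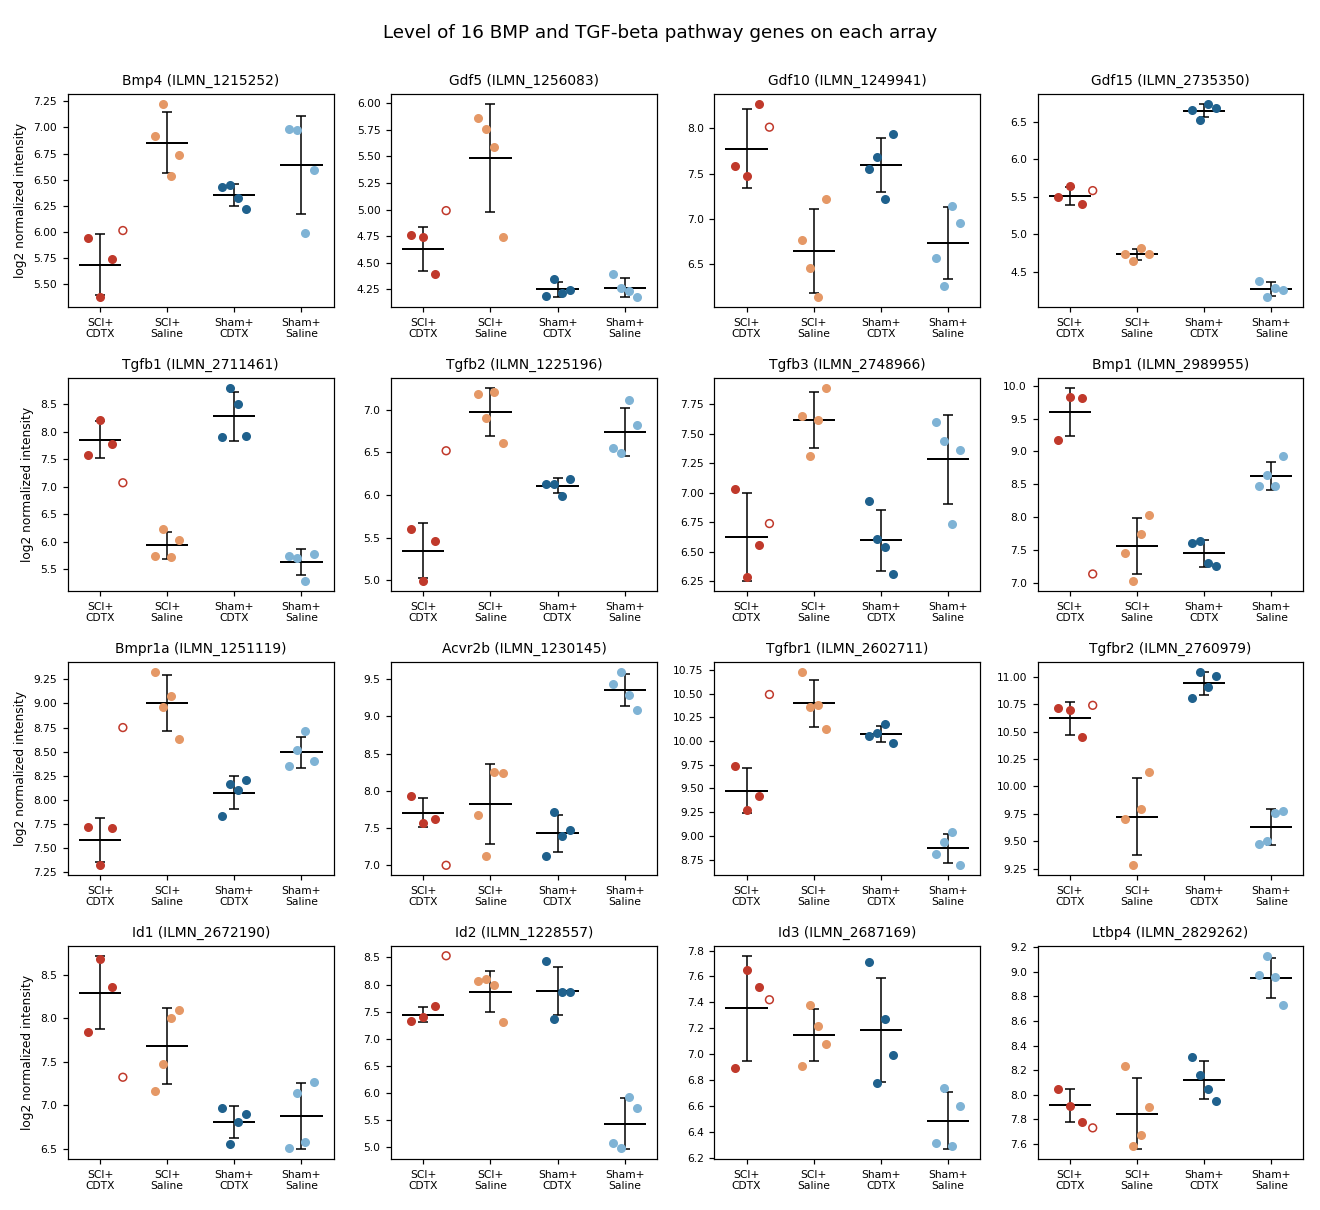
Log2 normalized intensity of 16 member genes on each array by group (filled points), with the group mean (bar) and SD (whiskers), n = 3 arrays for SCI+CDTX and 4 for the other groups. The open point is SCI+CDTX array 2, normalized with all 16 arrays and left out of the mean; each panel has its own axis, and Tgfb1 is high and Tgfb2 low on the CDTX arrays.

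Among BMP and GDF ligands, 9 of 17 genes passed the detection filter, and CDTX in SCI mice changed 6 of those 9 (44.3% of all genes), with Gdf10, Gdf15 and Gdf3 higher and Bmp4, Gdf5 and Bmp5 lower. Bmp4 (ILMN_1215252, chromosome 14), a ligand that induces ectopic bone when placed in muscle, was 5.94, 5.37 and 5.74 in SCI+CDTX and 6.92, 7.23, 6.53 and 6.74 in SCI+Saline. It was 6.43, 6.45, 6.32 and 6.22 in Sham+CDTX and 6.99, 6.98, 5.99 and 6.59 in Sham+Saline. The SCI+CDTX arrays were below all other arrays of the 15. Bmp4 fell by 1.17 ± 0.22 on the log2 scale with CDTX in SCI mice (adjusted p = 0.000333), and -1.20 with the score. In sham mice the difference was -0.28 and not called. The interaction of -0.89 ± 0.30 (adjusted p = 0.0385) was lost over all 16 arrays (adjusted p = 0.0839), without background correction (-0.40, adjusted p = 0.089), with no detection filter (adjusted p = 0.084), with the score (-0.57, adjusted p = 0.669), and in 9 of the 15 fits that left out 1 array (adjusted p = 0.0552 to 0.12), those without SCI+CDTX array 3 or 4, SCI+Saline array 1 or 2, Sham+CDTX array 1, 2 or 3, or Sham+Saline array 3 or 4. SCI+CDTX was also below Sham+CDTX (-0.67 ± 0.22, adjusted p = 0.027), a call that ended without SCI+CDTX array 3 or 4 or Sham+CDTX array 1 or 2 (adjusted p = 0.0566 to 0.153) and with the score (-0.38, adjusted p = 0.719). It also ended over 16 arrays (-0.60, adjusted p = 0.0548), without background correction (-0.29, adjusted p = 0.0864) and with no detection filter (adjusted p = 0.0638).

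Gdf15 (ILMN_2735350, chromosome 8), a stress-induced member of the family, rose with CDTX after both surgeries and had the one interaction that stayed called with the score. It was 5.50, 5.64 and 5.40 in SCI+CDTX, 4.73, 4.64, 4.82 and 4.74 in SCI+Saline, 6.65, 6.52, 6.74 and 6.68 in Sham+CDTX, and 4.38, 4.16, 4.28 and 4.26 in Sham+Saline. No group overlapped another, and the probe was not above background on any Sham+Saline array and on 2 of the 4 SCI+Saline arrays. Sham+CDTX was at least 3.65-fold above Sham+Saline (adjusted p = 1.91e-10). In SCI mice the log2 fold change was 0.78 ± 0.13 (adjusted p = 9.08e-05), and SCI+CDTX was below Sham+CDTX by -1.13 ± 0.13 (adjusted p = 4.06e-06). The interaction was -1.60 ± 0.17 (adjusted p = 8.56e-06), and -1.61 (adjusted p = 0.00979) with the score; it rests on the Sham+Saline level, which is a bound. SCI+Saline was higher than Sham+Saline (adjusted p = 0.00582), with no fold given so near background, and with only these groups fitted the adjusted p was 0.0583.

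Gdf10 (ILMN_1249941, chromosome 14), also called Bmp3b, is made by fibroadipogenic progenitors in muscle. It was 7.58, 7.47 and 8.27 in SCI+CDTX and 6.77, 6.46, 6.14 and 7.22 in SCI+Saline, without overlap. It rose by 1.13 ± 0.26 in SCI mice (adjusted p = 0.0018) and by 0.87 ± 0.24 in sham mice (adjusted p = 0.00585), the latter 0.34 (adjusted p = 0.751) with the score. The 6 progenitor markers were all called higher with CDTX in SCI mice, with a median of 1.00, and 4 were higher and 1 lower in sham mice. Gdf3, a ligand of early development, rose by 0.77 (adjusted p = 0.00531) and 0.65 (adjusted p = 0.00843; 0.103 with the score) in the same comparisons. Bmp5, a ligand with roles in cartilage, fell by 0.46 (adjusted p = 0.0208) and 0.76 (adjusted p = 0.00018) on the log2 scale, and was called in neither with the score (-0.45 and -0.33, adjusted p = 0.0509 and 0.592).

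Gdf5 (ILMN_1256083, chromosome 2), a ligand of joint and cartilage formation that is also induced in denervated muscle, was called higher with SCI alone, as was Gdf15, and these were 2 of the 9 tested ligands (14.7% of all genes). It was 5.86, 5.76, 5.59 and 4.74 in SCI+Saline and 4.76, 4.74 and 4.39 in SCI+CDTX. It was not above background on any sham array, where it read 4.18 to 4.39. SCI+Saline was at least 1.63-fold above Sham+Saline (adjusted p = 7.96e-05), with array 4 the lowest of its group. CDTX in SCI mice changed it by -0.85 ± 0.20 (adjusted p = 0.00228), although array 4 of SCI+Saline overlapped the SCI+CDTX range, and the value was -0.94 (adjusted p = 0.00293) with the score. The interaction (-0.84 ± 0.28, adjusted p = 0.0337) rests on 2 sham groups below background. It was -0.40 (adjusted p = 0.765) with the score, -0.48 (adjusted p = 0.16) under median scaling, and lost over 16 arrays, without background correction and with no detection filter (adjusted p = 0.0831, 0.077 and 0.0671). It was also lost in 8 of the 15 fits without 1 array (adjusted p = 0.0518 to 0.104), those without SCI+CDTX array 4, SCI+Saline array 1, 2 or 3, Sham+CDTX array 2, 3 or 4, or Sham+Saline array 4. Bmp3, which opposes bone-forming BMPs, was detected on 0 of 4 SCI+Saline and 1 of 4 Sham+Saline arrays, and was at least 1.14-fold lower after SCI (adjusted p = 0.0126, or 0.0785 with only these groups fitted). Its Sham+Saline array 4 read 5.42 and the other 3 read 4.67 to 4.74. Bmp6 and Gdf9 were called in no comparison.

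The ligands Bmp2, Bmp7, Bmp8a, Bmp8b, Bmp10, Bmp15, Gdf2 and Gdf6 had no probe detected on at least 3 arrays. The same held for Inhbc, Inhbe, Grem1, Smad7, Smad9, Acvr1b and Id4, so 15 of 56 genes gave no test. In all, 20 of the 81 probes were detected on none of the 15 arrays, which says that the signal did not pass background and not that the gene was silent. Of the activin subunits, Inhba, the activin A subunit, lay between 4.22 and 5.18 and was called in no comparison. Inha, the inhibin subunit, was 6.04, 5.61, 4.71 and 4.92 in Sham+Saline and 4.49, 4.34, 4.23 and 4.42 in SCI+Saline, where no array was above background. Sham+Saline was at least 1.54-fold higher than SCI+Saline (adjusted p = 0.00225) without overlap, with arrays 1 and 2 setting the mean. The Inha difference with CDTX in sham mice (-0.68, adjusted p = 0.012) overlapped, and was -0.45 (adjusted p = 0.0503) without Sham+Saline array 1, -0.35 (adjusted p = 0.0842) under median scaling and -0.58 (adjusted p = 0.503) with the score.

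Bmp1 is a metalloprotease and, despite its name, no ligand: it trims procollagen, cleaves chordin and helps to free latent TGF-beta. Its 4 probes gave different answers, so the first 30 of the 50 bases of each are shown, with the base of transcript at which the array table starts the probe. None of the letters is marked.
Bmp1 ILMN_1255558, base 1072: gacccgactcagcaagggggacatcgctca
Bmp1 ILMN_1218116, base 3067: ggcttccacctgcggtacacaagcaccaag
Bmp1 ILMN_2713538, base 3069: gcttccacctgcggtacacaagcaccaagt
Bmp1 ILMN_2989955, base 3633: catcagccacaccagggcaccccagccaat
The probes at bases 3067 and 3069 share 48 of 50 bases and are close to one measurement made on 2 bead types. The others share no base with them.

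The last Bmp1 probe, ILMN_2989955 (chromosome 14), had the largest interaction among the 58 member probes over 15 arrays. It was 9.18, 9.82 and 9.81 in SCI+CDTX, 7.46, 7.03, 7.75 and 8.03 in SCI+Saline, 7.61, 7.64, 7.30 and 7.26 in Sham+CDTX, and 8.47, 8.64, 8.48 and 8.93 in Sham+Saline. The 3 SCI+CDTX arrays stood above all others, and the excluded array 2 read 7.14. CDTX raised it by 2.04 ± 0.22 in SCI mice (adjusted p = 1.84e-06) and changed it by -1.18 ± 0.20 in sham mice (adjusted p = 8.22e-05), an interaction of 3.21 ± 0.30 (adjusted p = 2.08e-06). Over all 16 arrays the interaction was 2.58 (adjusted p = 0.0104) and the effect in SCI mice 1.40 (adjusted p = 0.0129). Under median scaling the effect in sham mice was -0.45 (adjusted p = 0.115). With the score the interaction was 0.14 (adjusted p = 0.944), the effect in sham mice turned to 2.24 (adjusted p = 0.00867), SCI with CDTX turned from 2.15 to -0.60 (adjusted p = 0.531), and the effect in SCI mice was 2.39 (adjusted p = 7.09e-06).

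The overlapping pair also rose with CDTX in SCI mice. ILMN_1218116 was 7.39, 7.87 and 7.47 in SCI+CDTX against 5.83, 5.73, 5.80 and 6.58 in SCI+Saline, and ILMN_2713538 was 7.09, 7.56 and 6.97 against 6.0, 5.49, 5.22 and 5.81. Both were higher on every SCI+CDTX array, by 1.59 ± 0.19 (adjusted p = 5.2e-06) and 1.58 ± 0.20 (adjusted p = 7.48e-06). In sham mice ILMN_1218116 rose by 0.61 (adjusted p = 0.00845), which was 0.60 (adjusted p = 0.0557) over 16 arrays and 2.0 (adjusted p = 0.011) with the score, and ILMN_2713538 differed by 0.42 (not called). Their interactions were 0.99 (adjusted p = 0.0102) and 1.16 (adjusted p = 0.00429), and -0.31 and 0.55 with the score, neither called. The first interaction was 0.69 (adjusted p = 0.218) over 16 arrays and 0.55 (adjusted p = 0.187) under median scaling. SCI without CDTX changed all 3 late probes, by -0.82, -0.92 and -1.06 (adjusted p = 0.0018, 0.000891 and 0.000548), and these remained called with the score at -0.69, -0.86 and -0.74. Over all 16 arrays the last of these was -1.06 with an adjusted p of 0.0693, and under median scaling the first was -0.43 with an adjusted p of 0.12. The probe at base 1072, which read 4.30 to 5.17 on all 15 arrays, was called in no comparison.

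Most latent TGF-beta binding proteins, though not Ltbp2, tether TGF-beta in the matrix, and Ltbp4 also serves elastic fibre assembly and is a modifier of muscular dystrophy. Ltbp4 (ILMN_2829262, chromosome 7) was 8.97, 9.13, 8.96 and 8.73 in Sham+Saline and 8.23, 7.58, 7.67 and 7.90 in SCI+Saline. It was 8.31, 8.16, 8.05 and 7.95 in Sham+CDTX and 8.05, 7.91 and 7.78 in SCI+CDTX. Sham+Saline stood above every other array. SCI changed it by -1.10 ± 0.15 (adjusted p = 2.69e-05, and -1.07 with the score), and a further Ltbp4 probe fell by 1.04 ± 0.20 on the log2 scale (adjusted p = 0.000718). CDTX in sham mice changed ILMN_2829262 by -0.83 ± 0.15 (adjusted p = 0.000177), which was -0.52 (adjusted p = 0.378) with the score, and the interaction was 0.90 ± 0.22 (adjusted p = 0.00686), or 0.62 (adjusted p = 0.491) with the score. Under median scaling these were -0.15 (adjusted p = 0.42) and 0.47 (adjusted p = 0.12). Fibroadipogenic progenitor markers were lower in 4 of 6 genes, and endothelial markers in 5 of 6, after SCI without CDTX. Under median scaling these were 2 of 6 and 0 of 6 (medians -0.33 and -0.25).

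Ltbp3 (ILMN_2776619, chromosome 19) was 8.99, 8.99 and 8.79 in SCI+CDTX and 8.13, 8.68, 8.23 and 8.16 in Sham+CDTX. The difference of 0.62 ± 0.22 (adjusted p = 0.0426) was lost with the score (0.07, adjusted p = 0.966), over 16 arrays (adjusted p = 0.0835), under median scaling (0.53, adjusted p = 0.117), with no detection filter (adjusted p = 0.0951), and in the 6 fits without SCI+CDTX array 1, 3 or 4 or Sham+CDTX array 1, 3 or 4 (adjusted p = 0.0677 to 0.121). A dimmer Ltbp3 probe, ILMN_2608746, differed by 0.07 between these groups, not called. A less bright Ltbp1 probe was higher in SCI+CDTX than in Sham+CDTX (0.89, adjusted p = 0.00564), which was -0.16 (adjusted p = 0.919) with the score. The brighter Ltbp1 probe, detected on all 15 arrays, differed by 0.17 there, not called. Ltbp2, detected on 3 of 15 arrays, was at least 1.26-fold lower with CDTX in sham mice (adjusted p = 0.00404), or -0.26 with the score (adjusted p = 0.695), and its interaction of 0.63 (adjusted p = 0.0469) rests on SCI+Saline and Sham+CDTX, where 0 arrays were above background. That interaction was 0.59 (adjusted p = 0.0939) over 16 arrays and 0.36 (adjusted p = 0.731) with the score.

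Antagonists bind ligands outside the cell. Chordin (Chrd, ILMN_2765047, chromosome 16), which holds BMPs away from their receptors, was 6.03, 6.21 and 6.71 in SCI+CDTX, 5.95, 5.73, 6.81 and 6.70 in SCI+Saline, 5.01, 5.09, 4.68 and 4.84 in Sham+CDTX, and 5.99, 6.39, 6.16 and 6.56 in Sham+Saline. The Sham+CDTX arrays were the only low ones of the 15, and SCI+CDTX array 2, the other array with a high score, read 5.17. The differences were -1.37 ± 0.22 with CDTX in sham mice (adjusted p = 4.8e-05), 1.41 ± 0.24 for SCI with CDTX (adjusted p = 0.00021) and 1.39 ± 0.33 for the interaction (adjusted p = 0.00455). With the score they were 0.65, -0.13 and -0.34, none called (adjusted p = 0.377, 0.927 and 0.811), and the interaction was 1.11 (adjusted p = 0.0805) over 16 arrays.

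Follistatin (Fst, ILMN_1228958, chromosome 13), which traps activins and myostatin, was 6.03, 6.17, 5.69 and 5.39 in SCI+Saline and 4.59, 5.40, 5.04 and 5.42 in Sham+Saline, and the groups overlapped. The difference of 0.70 ± 0.24 (adjusted p = 0.0309) was lost without SCI+Saline array 1 or 2 or Sham+Saline array 1 or 3 (0.54 to 0.69, adjusted p = 0.0609 to 0.111), without background correction (0.24, adjusted p = 0.0654), with no detection filter (adjusted p = 0.0824) and with the score (0.65, adjusted p = 0.0511). Noggin (Nog), a BMP trap, was detected on 3 of 15 arrays, lay between 4.29 and 4.80, and was called in no comparison.

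Of 12 receptor genes, 11 were tested, and 5 were called for CDTX in SCI mice (44.3% of all genes), 2 higher and 3 lower. Tgfbr2 (ILMN_2760979, chromosome 9), the type II receptor that first binds TGF-beta, was 10.72, 10.70 and 10.45 in SCI+CDTX, 9.70, 9.28, 9.79 and 10.13 in SCI+Saline, 10.81, 11.04, 10.91 and 11.01 in Sham+CDTX, and 9.47, 9.50, 9.76 and 9.78 in Sham+Saline. Like Tgfb1, it was higher on every CDTX array than on every saline array. It rose by 0.90 ± 0.17 in SCI mice (adjusted p = 0.000407) and by 1.32 ± 0.16 in sham mice (adjusted p = 2.07e-06), which were 0.90 and 1.25 with the score, both called. A dimmer Tgfbr2 probe was higher after SCI without CDTX (0.53, adjusted p = 0.0346, or 0.56 with the score). This dimmer probe was detected on only 2 of 4 SCI+Saline and 1 of 4 Sham+Saline arrays. ILMN_2760979 differed by 0.10 in that comparison, not called. Acvrl1, the type I receptor of endothelium, rose by 0.55 ± 0.13 in SCI mice (adjusted p = 0.00206) and was at least 1.29-fold higher in sham mice (adjusted p = 0.000663). Of 6 endothelial markers, CDTX raised 2 and lowered 0 in SCI mice (median 0.24). In sham mice it raised 0 and lowered 4 (median -0.53). Under median scaling these were 4 and 0, and 2 and 2. Tgfbr3, the co-receptor betaglycan, rose by 0.47 in sham mice (adjusted p = 0.0119), with 0.60 and an adjusted p of 0.274 with the score.

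Tgfbr1 (ILMN_2602711, chromosome 4), the type I receptor kinase for TGF-beta, moved with SCI. It was 10.73, 10.36, 10.38 and 10.13 in SCI+Saline against 8.81, 8.94, 9.04 and 8.69 in Sham+Saline, with no overlap, and rose by 1.53 ± 0.15 (adjusted p = 4.46e-07). The probe 83 bases further on, ILMN_2980532, rose by 1.91 ± 0.23 (adjusted p = 5.04e-06), and both were called with the score (1.41 and 1.81). With CDTX in SCI mice the first probe was 9.74, 9.27 and 9.42, below all SCI+Saline arrays, a fall of 0.92 ± 0.16 on the log2 scale (adjusted p = 0.000151); the second was -0.83 ± 0.25 (adjusted p = 0.0107) with overlap, and -0.52 (adjusted p = 0.177) over 16 arrays. In sham mice, where CDTX arrays read 10.05, 10.08, 10.18 and 9.98, the first probe rose by 1.20 ± 0.15 (adjusted p = 2.33e-06), which was -0.09 (adjusted p = 0.914) with the score. The interaction was -2.13 ± 0.22 (adjusted p = 5.45e-06), and -0.96 (adjusted p = 0.284) with the score. SCI+CDTX below Sham+CDTX (-0.60, adjusted p = 0.00832) was -0.50 (adjusted p = 0.054) without SCI+CDTX array 3, -0.35 (adjusted p = 0.271) over 16 arrays and 0.45 (adjusted p = 0.511) with the score. ILMN_2980532 pointed the other way for SCI with CDTX (0.59, not called), and differed by 0.49 with CDTX in sham mice, not called. Its interaction was -1.32 (adjusted p = 0.00758), -1.02 (adjusted p = 0.116) over 16 arrays and -0.25 (adjusted p = 0.916) with the score. A further tested probe at base 2753, detected on 4 of 15 arrays, lay between 4.19 and 4.81 and was called in no comparison.

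Bmpr1a (ILMN_1251119, chromosome 14), the BMP type I receptor also called Alk3, was 7.72, 7.32 and 7.71 in SCI+CDTX, 9.33, 8.96, 9.08 and 8.63 in SCI+Saline, 7.83, 8.16, 8.10 and 8.21 in Sham+CDTX, and 8.35, 8.52, 8.71 and 8.40 in Sham+Saline. SCI+CDTX was the lowest group, without overlap. It fell by 1.41 ± 0.17 on the log2 scale with CDTX in SCI mice (adjusted p = 5.69e-06; -1.54 with the score), where SCI+CDTX array 2 read 8.75 and the 16-array value was -1.13 (adjusted p = 0.000943). A dimmer Bmpr1a probe fell by 0.59 on that scale (adjusted p = 0.0404; 0.198 over 16 arrays). The smaller differences of ILMN_1251119 were -0.42 with CDTX in sham mice (adjusted p = 0.0355), -0.49 for SCI with CDTX (adjusted p = 0.0394) and 0.50 for SCI without CDTX (adjusted p = 0.0231). They were lost over 16 arrays (adjusted p = 0.145, 0.602 and 0.121) and each when 1 of several arrays was left out. These were Sham+CDTX array 1 or 3 and Sham+Saline array 2 or 3 for CDTX in sham mice (adjusted p = 0.0598 to 0.115), SCI+CDTX array 3 or 4 and Sham+CDTX array 2, 3 or 4 for SCI with CDTX (adjusted p = 0.058 to 0.204), and SCI+Saline array 1 or 3 and Sham+Saline array 1 or 4 for SCI without CDTX (adjusted p = 0.0533 to 0.0894). With the score they were -1.84 (adjusted p = 0.00822), 0.67 (adjusted p = 0.321) and 0.37 (adjusted p = 0.14). Under median scaling the sham value was 0.29, and with no detection filter the adjusted p for SCI with CDTX was 0.0529. The interaction of -0.99 ± 0.24 (adjusted p = 0.00487) was -0.71 (adjusted p = 0.165) over 16 arrays and 0.30 (adjusted p = 0.819) with the score.

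Bmpr1b, a related receptor best known in cartilage, was lower with CDTX in SCI mice and higher after SCI alone at both tested probes. ILMN_2812900 was 6.53, 6.27, 6.45 and 5.79 in SCI+Saline and 5.57, 5.23 and 5.41 in SCI+CDTX. The 2 probes fell by 0.86 and 0.81 on the log2 scale with CDTX in SCI mice (adjusted p = 0.0076 and 0.000758) and were higher by 0.68 and 0.58 after SCI without CDTX (adjusted p = 0.0282 and 0.0087). All of these were called with the score, and for SCI without CDTX the ILMN_2812900 groups overlapped through Sham+Saline array 3, at 6.30.

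Acvr2b (ILMN_1230145, chromosome 9), the type II receptor through which myostatin and activin limit muscle mass, was highest in Sham+Saline. It was 9.43, 9.60, 9.29 and 9.09 in Sham+Saline, 7.68, 7.13, 8.25 and 8.24 in SCI+Saline, 7.12, 7.71, 7.40 and 7.48 in Sham+CDTX and 7.93, 7.57 and 7.62 in SCI+CDTX. No other array reached the Sham+Saline range. SCI changed it by -1.53 ± 0.21 (adjusted p = 2.81e-05; -1.38 with the score, adjusted p = 3.11e-05). CDTX in sham mice changed it by -1.93 ± 0.21 (adjusted p = 6.88e-07; -0.45 with the score, adjusted p = 0.551), and CDTX after SCI changed it by -0.12, not called. The interaction was 1.80 ± 0.31 (adjusted p = 0.00044; 0.57 with the score, adjusted p = 0.628). Acvr2a, its close relative, was lower with CDTX in sham mice (-0.68, adjusted p = 0.00934; -0.97 with the score, adjusted p = 0.219).

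Acvr1 (ILMN_2660103, chromosome 2), the receptor of fibrodysplasia ossificans progressiva, was 7.04, 6.61, 6.60 and 6.94 in SCI+Saline and 7.30, 7.06, 7.36 and 7.28 in Sham+Saline, without overlap. The difference was -0.45 ± 0.15 (adjusted p = 0.0289; -0.46 with the score), and was lost without SCI+Saline array 2 or 3 or Sham+Saline array 1, 3 or 4 (-0.44 to -0.38, adjusted p = 0.0567 to 0.0853) and under median scaling (-0.04, adjusted p = 0.889). With CDTX the differences were 0.21 in SCI mice and -0.04 in sham mice, neither called. Bmpr2, the BMP type II receptor, was detected on 6 of 15 arrays and called in no comparison, like Acvr1c.

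Smads carry the signal to the nucleus, and none of the 4 tested effector genes was called for CDTX in SCI mice (44.3% of all genes) or for SCI without CDTX (30.6%) at its brightest probe over 15 arrays. Smad3 was called for CDTX in SCI mice over 16 arrays (-0.69, adjusted p = 0.0356) and for SCI without CDTX with the score (0.61, adjusted p = 0.0315), and Smad1 (ILMN_2953700) for CDTX in SCI mice with the score (0.52, adjusted p = 0.0269). Smad3 (ILMN_2938893, chromosome 9), the TGF-beta and activin effector, was 9.18, 8.23 and 8.80 in SCI+CDTX, 9.20, 8.83, 9.21 and 9.59 in SCI+Saline, 7.38, 7.45, 7.25 and 7.08 in Sham+CDTX and 9.18, 8.75, 8.65 and 8.33 in Sham+Saline. The 4 Sham+CDTX arrays were the low ones, and SCI+CDTX array 2 read 7.90. The differences were -1.44 ± 0.21 with CDTX in sham mice (adjusted p = 1.51e-05), 1.45 ± 0.23 for SCI with CDTX (adjusted p = 9.68e-05) and 0.97 ± 0.31 for the interaction (adjusted p = 0.028). With the score they were -0.03, 0.36 and -0.25, none called, and the interaction was also lost without SCI+CDTX array 1 or 4, SCI+Saline array 2, Sham+CDTX array 4 or Sham+Saline array 1 (adjusted p = 0.0588 to 0.097). It was 0.75 (adjusted p = 0.171) over 16 arrays and 0.31 (adjusted p = 0.48) under median scaling, and was not called without background correction (adjusted p = 0.0754) or with no detection filter (adjusted p = 0.0674).

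Smad1, a BMP effector, had 2 bright probes that were called in opposite directions for SCI with CDTX. They lie 307 bases apart on the transcript, and their first 30 bases are shown for that reason.
Smad1 ILMN_2671572, base 2632: gtgagagcagatgagtaattccttctgttc
Smad1 ILMN_2953700, base 2939: ttctcctttgctcttatacagcgagtactt
The first was 7.88, 7.72 and 7.72 in SCI+CDTX and 8.35, 8.26, 8.38 and 8.18 in Sham+CDTX, a difference of -0.52 ± 0.16 (adjusted p = 0.0171). The second was 8.49, 8.29 and 8.50 in SCI+CDTX and 8.19, 7.82, 7.51 and 7.88 in Sham+CDTX, a difference of 0.58 ± 0.17 (adjusted p = 0.0152). Neither pair of groups overlapped. With the score the differences were 0.04 (adjusted p = 0.973) and 0.09 (adjusted p = 0.935). The first was -0.41 (adjusted p = 0.085) over 16 arrays, and the second 0.50 (adjusted p = 0.0668) under median scaling. Without SCI+CDTX array 3 or 4 the first, and without SCI+CDTX array 1 or 4 or Sham+CDTX array 3 the second, passed the threshold no longer (adjusted p = 0.0506 to 0.0634). The first probe also rose with CDTX in sham mice (0.58, adjusted p = 0.00261; -0.13 with the score), and the interaction of the second was 0.74 (adjusted p = 0.0266; 0.19 with the score, adjusted p = 0.875). That interaction was lost without SCI+CDTX array 1 or 4, SCI+Saline array 1 or 2, or Sham+CDTX array 3 (adjusted p = 0.0529 to 0.0666), over 16 arrays (0.66, adjusted p = 0.0743) and under median scaling (0.19, adjusted p = 0.641). Of the 12 member genes with several tested probes, Bmp1 and Smad1 gave the 2 cases of opposite calls.

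**Figure D3:**
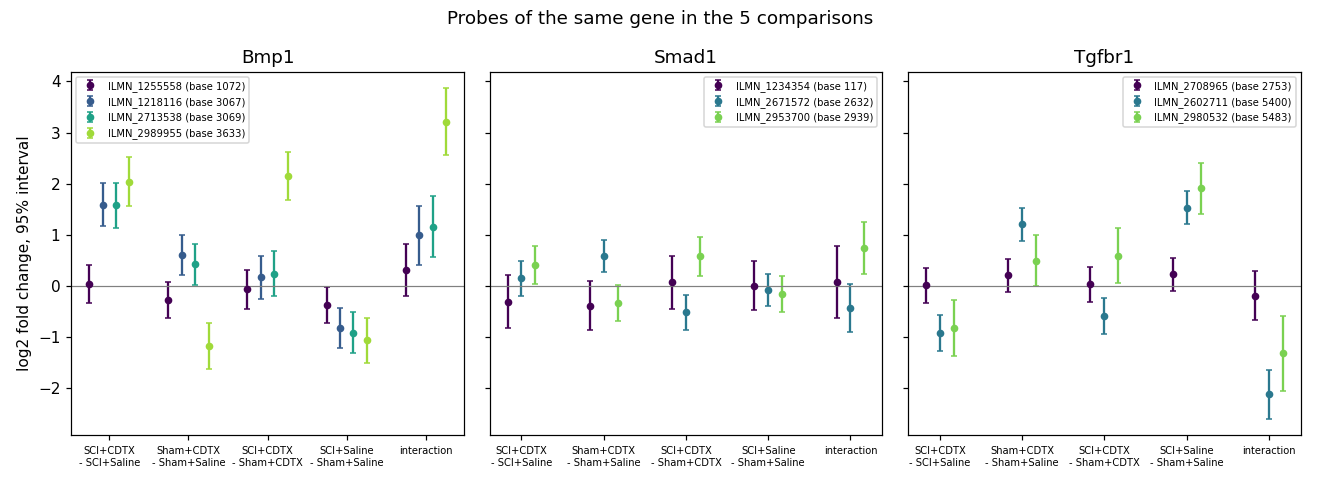
Log2 fold change and 95% interval of each tested probe of Bmp1, Smad1 and Tgfbr1 in the 5 comparisons (x axis), coloured by the base of the transcript at which the probe starts. For Bmp1 the late probe and the overlapping pair lie on opposite sides of 0 for CDTX in sham mice (-1.18 against 0.61 and 0.42), and for Smad1 the 2 late probes do so for SCI with CDTX (-0.52 and 0.58).

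Smad2, the partner of Smad3, and Smad5, a BMP effector, were called in no comparison, and Smad2 lay between 5.97 and 6.82. No probe on the array carried the symbol Smad4, so the shared partner was not measured here. Smad6, the inhibitory Smad that BMP signalling induces, was detected on 9 of 15 arrays, lay between 4.34 and 5.25, and was called in no comparison.

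The Id genes, direct targets of BMP signalling, were higher after SCI without CDTX in 3 of 3 tested genes, where 14.7% of all genes were called higher. Of Id1, Id2 and Id3, the promoter table matched Id2 and Id3, and the 250 bases before their starts are shown because the tested Id genes moved together in that comparison. They are from RefSeq on GRCm38.p6, at chr12:25096093-25096342 on the minus strand and chr4:136143572-136143821 on the plus strand, and capitals mark GGCGCC, a core of BMP response elements.
Id2: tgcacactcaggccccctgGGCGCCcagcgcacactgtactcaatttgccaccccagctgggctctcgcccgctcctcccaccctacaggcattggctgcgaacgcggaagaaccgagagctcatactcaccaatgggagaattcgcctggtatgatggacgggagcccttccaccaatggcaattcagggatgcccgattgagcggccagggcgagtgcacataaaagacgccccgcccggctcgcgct
Id3: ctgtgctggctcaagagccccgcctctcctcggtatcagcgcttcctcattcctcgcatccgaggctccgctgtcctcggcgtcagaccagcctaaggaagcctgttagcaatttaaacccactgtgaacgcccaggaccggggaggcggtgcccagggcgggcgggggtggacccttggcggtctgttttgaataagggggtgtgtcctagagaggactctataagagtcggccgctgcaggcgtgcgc
GGCGCC reads the same on both strands. Over windows of 250 bases before to 50 after a start, it was in 12 of the 40 member genes matched by symbol (30%) and in 13.4% of 27025 genes. Of the 22 matched members called in a comparison it was in 6 (27.3%). A gene counted if any of its promoters matched, and 7 of the 40 members had several. GTCTAGAC, a Smad palindrome, was in 1 of 40 (Smad6) and 0.248% of all, and CAGACA, searched on both strands, in 9 of 40 (22.5%) and 23.6% of all. Motifs can overlap each other, and a match is a description of the letters only.

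Id2 (ILMN_1228557, chromosome 12) was 8.06, 8.11, 8.0 and 7.31 in SCI+Saline and 5.07, 4.99, 5.93 and 5.73 in Sham+Saline. It was 8.44, 7.37, 7.86 and 7.86 in Sham+CDTX and 7.32, 7.41 and 7.60 in SCI+CDTX. Sham+Saline was the one low group, and the other 3 overlapped. SCI raised it by 2.44 ± 0.24 (adjusted p = 5.12e-07; 2.30 with the score, adjusted p = 1.7e-06). CDTX in sham mice raised it by 2.45 ± 0.24 (adjusted p = 1.66e-07), which was 0.90 (adjusted p = 0.311) with the score, and CDTX after SCI gave -0.43, not called. The interaction was -2.88 ± 0.35 (adjusted p = 2.31e-05; -1.51 with the score, adjusted p = 0.261). A second Id2 probe, above background on no Sham+Saline array, was at least 1.9-fold higher after SCI (adjusted p = 4.45e-05) and at least 1.17-fold higher with CDTX in sham mice (adjusted p = 0.00673; 0.0912 with the score). The second probe was also higher in SCI+CDTX than in Sham+CDTX (0.71, adjusted p = 0.0212, or 0.33 with the score, adjusted p = 0.761). There the brighter probe ILMN_1228557 pointed the other way (-0.44, not called). The interaction of the second probe was -0.71, not called.

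Id1 (ILMN_2672190, chromosome 2) was 7.84, 8.68 and 8.36 in SCI+CDTX, 7.16, 7.47, 8.0 and 8.09 in SCI+Saline, 6.97, 6.55, 6.81 and 6.90 in Sham+CDTX, and 6.51, 7.14, 6.58 and 7.26 in Sham+Saline. SCI arrays were higher than sham arrays except that 1 SCI+Saline array lay within the Sham+Saline range. SCI without CDTX raised it by 0.81 ± 0.23 (adjusted p = 0.0112; 0.95 with the score, adjusted p = 0.00351). SCI with CDTX raised it by 1.49 ± 0.24 (adjusted p = 0.000157; 1.23 over 16 arrays, adjusted p = 0.00473; 0.26 with the score, adjusted p = 0.833). CDTX in SCI mice gave 0.61 ± 0.24 (adjusted p = 0.0497), which was 0.36 (adjusted p = 0.325) over 16 arrays, 0.81 (adjusted p = 0.0177) with the score, and lost with no detection filter (adjusted p = 0.117), with only these groups fitted (0.62, adjusted p = 0.082) and in 9 of the 15 fits without 1 array (adjusted p = 0.0516 to 0.253). These were the fits without SCI+CDTX array 3 or 4, SCI+Saline array 1 or 2, any 1 Sham+CDTX array, or Sham+Saline array 2.

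Id3 (ILMN_2687169, chromosome 4) was 6.91, 7.38, 7.22 and 7.08 in SCI+Saline and 6.31, 6.74, 6.29 and 6.60 in Sham+Saline, without overlap. It rose by 0.66 ± 0.20 with SCI (adjusted p = 0.0182; 0.66 with the score), a call lost without SCI+Saline array 2 or Sham+Saline array 1 or 3 (0.58 to 0.60, adjusted p = 0.0505 to 0.0586). CDTX in sham mice raised it by 0.70 ± 0.20 (adjusted p = 0.00725; 0.73 with the score, adjusted p = 0.341). The muscle precursor markers Myod1 and Myog, the 2 of 5 tested, were both higher after SCI without CDTX, with a median of 2.98, and summed to 1030 to 1290 in SCI+Saline, 646 to 703 in SCI+CDTX, 402 to 559 in Sham+CDTX and 101 to 180 in Sham+Saline.

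**Figure D4:**
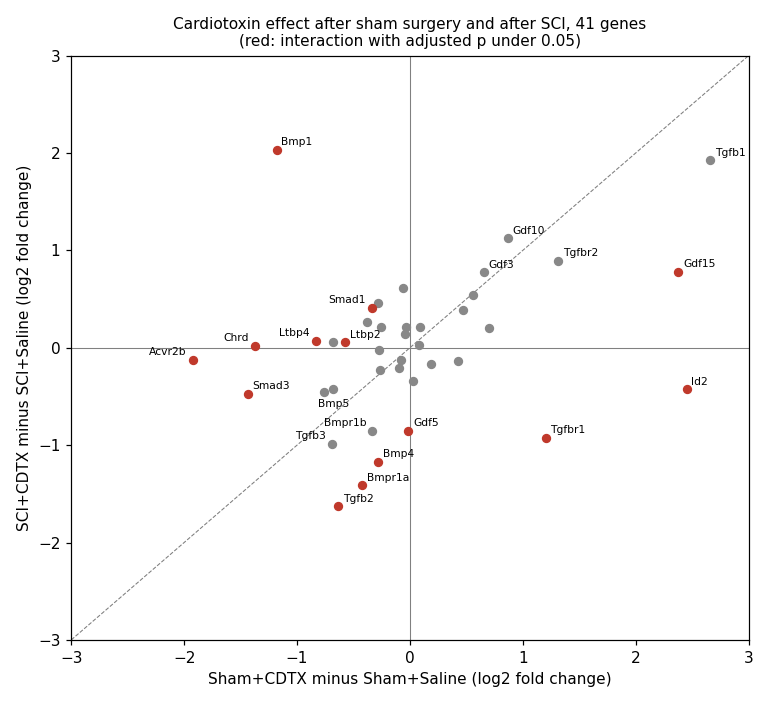
Log2 fold change with CDTX in sham mice (x axis) and in SCI mice (y axis) for the brightest tested probe of the 41 genes, with the line of equal effect dashed and genes with a called interaction in red. Tgfb1 (2.66 and 1.93) is positive on both axes, while Bmp1, Id2 and Tgfbr1 lie where the effects have opposite signs.

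Other genes of the pathway were read from lists, 1 probe per gene. Among all genes, 22.1% were called higher and 22.2% lower for CDTX in SCI mice, 23.8% and 26.8% for CDTX in sham mice, and 14.7% and 15.8% for SCI without CDTX, and the medians of all genes were -0.04, -0.05 and -0.02. Of the extracellular modulators, 21 of 34 were tested, and CDTX raised 8 and lowered 3 in SCI mice (median 0.31) and raised 10 and lowered 5 in sham mice (median 0.33). With the score the sham counts were 3 higher and 0 lower. Nrros, which tethers latent TGF-beta on macrophages, rose by 2.73 in sham mice (adjusted p = 1.42e-07; 3.27 with the score, adjusted p = 0.00628), and Bgn, the matrix proteoglycan biglycan, rose by 2.40 in SCI mice (adjusted p = 2.38e-06; 2.47 with the score). SCI without CDTX raised 1 and lowered 5 of the 21 (median -0.17), and 4 and 3 under median scaling (median 0.19).

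Of the TGF-beta and activin response genes, 11 of 14 were tested, and CDTX raised 8 and lowered 0 in SCI mice (median 1.14) and raised 6 and lowered 2 in sham mice (median 1.69). With the score these were 7 and 0 in SCI mice and 4 and 0 in sham mice. Timp1, an inhibitor of matrix proteases, and Lox, which cross-links collagen, rose by 3.04 (adjusted p = 3.98e-05) and 2.70 (adjusted p = 3.14e-07) in sham mice, and by 3.82 (adjusted p = 0.0449) and 1.96 (adjusted p = 0.0475) with the score. Markers of macrophages and fibroadipogenic progenitors moved in the same comparisons, and their part in these changes was not tested.

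Of the BMP response and osteogenic genes, 7 of 14 were tested, and CDTX in SCI mice raised 0 and lowered 1 (median -0.19). Bglap, Ibsp, Runx2 and Sp7, genes of bone-forming cells, did not pass the detection filter. CDTX in sham mice raised 1 and lowered 3 (median -0.44), and 1 and 0 with the score or under median scaling. Sox9, the regulator of cartilage formation, was the one that rose, by 1.03 (adjusted p = 0.000135; 1.36 with the score, adjusted p = 0.0449), and it was above background on 1 of 4 Sham+Saline arrays. Alpl, Hey1 and Msx1 fell by 0.83, 0.63 and 0.44 on the log2 scale (adjusted p = 0.0077, 0.000994 and 0.0281). After SCI without CDTX 2 rose and 3 fell (median -0.51), and 2 and 0 under median scaling. Atoh8, a BMP target, was above background on no Sham+Saline array and was at least 1.53-fold higher in SCI+Saline (adjusted p = 0.000139).

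Of the intracellular regulators, 13 of 20 were tested, with 1 higher and 4 lower for CDTX in SCI mice (median -0.05) and 2 higher and 5 lower in sham mice (median -0.10; 1 and 2 with the score). Tgif1, a repressor of Smad-driven genes, rose by 2.56 after SCI without CDTX (adjusted p = 9.72e-10; 2.58 with the score). Tab1, a partner of the kinase Tak1, had an interaction of 1.65 (adjusted p = 0.000275), which was 1.36 (adjusted p = 0.0198) over 16 arrays and 0.12 (adjusted p = 0.941) with the score.

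**Figure D5:**
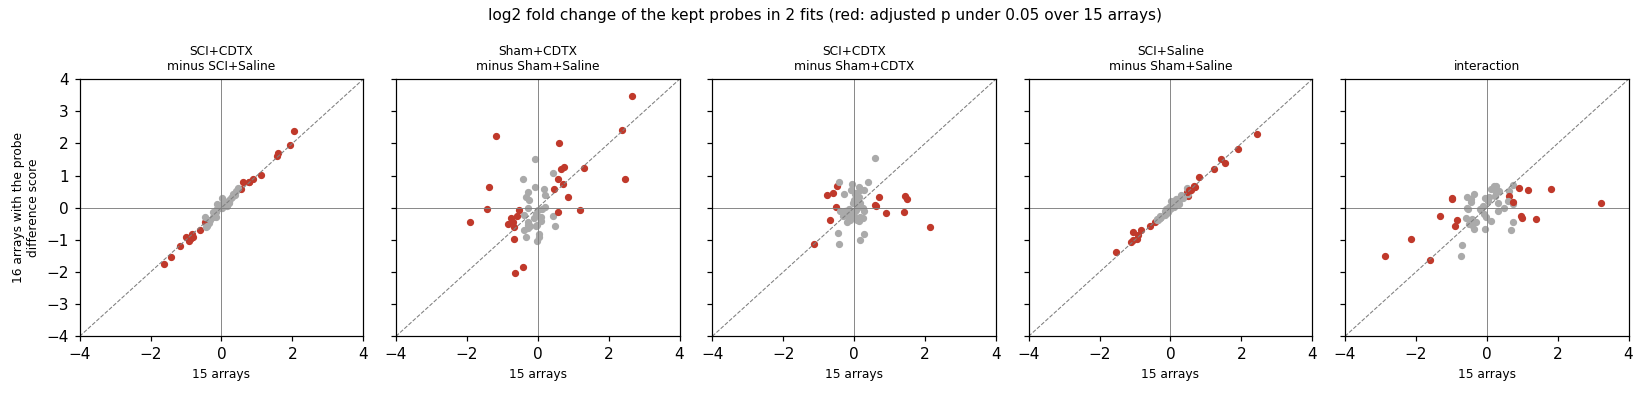
Log2 fold change of the 58 tested probes over 15 arrays (x axis) and over 16 arrays with the probe difference score as a covariate (y axis), by comparison, with calls of the 15-array fit in red and the line of equality dashed. The points follow the line for the 2 comparisons without Sham+CDTX and scatter in the other 3.

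In the authors' deposited table, the difference p against SCI+CDTX was under 0.05 for 20 member probes in SCI+Saline (16 with SCI+CDTX higher, 4 lower) and 13 in Sham+CDTX (7 and 6). Of these, 13 and 13 were also called by limma in the same direction, and 0 in the opposite one. For CDTX in SCI mice limma called 10 higher and 11 lower, or 16 and 7 under median scaling. The authors' values are from the same arrays as the limma fit, so agreement in direction is no independent check. The authors' group means gave the same direction as limma for 21 of 21, 23 of 23, 14 of 14 and 18 of 18 called probes that had a ratio, for CDTX in SCI mice, CDTX in sham mice, SCI with CDTX and SCI without CDTX.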

How the data were processed

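Total RNA of whole hindlimb muscle was labelled with biotin and hybridised to an Illumina array, per the labels. The deposited table holds each probe's mean bead intensity on each of 16 arrays, with no normalization or background subtraction per the file headers, and a detection p-value per probe and array that the authors deposited beside it. The submitters' processing notes name GenomeStudio 2011.1, and the file headers a gene expression module, version 1.9.0. Group means and difference p-values are from the authors' deposited final table.

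Intensities of 15 arrays were background-corrected from the detection p-values, quantile normalized and put on a log2 scale with an offset of 16 (neqc), which understates folds of dim probes. limma 3.58.1 under R 4.3.3 fitted 4 group means to the 14763 probes that 3 or more arrays detected at p under 0.05. Where no array of a group detected a probe, its level there is a bound. The fold is then written "at least" and sets the bright group's mean against the dim group's, in which each array counts with the dimmest signal it detected or with the probe's own if that is brighter. Symbols are the table's own.

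Members and gene lists were chosen with earlier results of these data known. Genes named are, per comparison, the 5 highest and 5 lowest called members without overlap between the groups (for the interaction, among those called), a list of pathway genes set by name, members whose probes disagree, and in each list of other genes the 2 with the largest called change. Further members, and the list genes Alpl, Hey1 and Msx1, were named after their values were seen, to account for them all. For the lists, the fits over 16 arrays, with the score and under median scaling were chosen after seeing the data. Replicate numbers did not pair the arrays. Probe bases were to be shown only where coding; no protein table was used, so 30 bases of each are given whatever their place. Alternatives are in the closing section, and 0 per-sample columns were left unused. The model was tested on simulated data.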

Additional observations from a re-analysis of the deposited data

Results flagged for a closer look

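Single arrays stood apart from the other 3 of their group in 7 of the 90 groups of 4 examined, where chance gives about 1 in 20. Tgfb1 read 5.28 on Sham+Saline array 3, against 5.70 to 5.78, and Ltbp3 read 8.19 on the same array, against 8.67 to 8.76. Id2 (ILMN_1228557) read 7.31 on SCI+Saline array 4, against 8.0 to 8.11. Bmp3 read 5.42 on Sham+Saline array 4, against 4.67 to 4.74. Bmp1 (ILMN_1218116) read 6.58 on SCI+Saline array 4, against 5.73 to 5.83, and also 6.58 on Sham+Saline array 2, against 6.85 to 6.89. Smad1 (ILMN_1234354) read 4.44 on SCI+Saline array 3, against 4.91 to 4.93.

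The effect of CDTX differed between SCI and sham mice by limma's interaction term for 17 of the 58 tested member probes. The log2 effect in SCI mice lay above that in sham mice for Bmp1 (3.21 for ILMN_2989955, 1.16 for ILMN_2713538 and 0.99 for ILMN_1218116), Acvr2b (1.80), Chrd (1.39), Smad3 (0.97), Ltbp4 (0.90), Smad1 (0.74) and Ltbp2 (0.63). It lay below that in sham mice for Id2 (-2.88), Tgfbr1 (-2.13 for ILMN_2602711 and -1.32 for ILMN_2980532), Gdf15 (-1.60), Tgfb2 (-0.99), Bmpr1a (-0.99), Bmp4 (-0.89) and Gdf5 (-0.84). Of these 17, Gdf15 alone was called with the probe difference score, where 0.947% of all called interactions were kept.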

How the results depend on the processing

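The counts of called members stayed within 1.5 times those reported for CDTX in SCI mice and for SCI without CDTX in every setting run. With the probe difference score, the count was 8 for CDTX in sham mice, 1 for SCI with CDTX and 1 for the interaction. Among all probes the counts were 3052, 267 and 43. Over all 16 arrays it was 8 for SCI with CDTX and 7 for the interaction, beside 2613 and 1532 of all probes. The cause was not tested. Leaving out 1 array gave 17 to 23 for CDTX in SCI mice, 24 to 30 for CDTX in sham mice, 8 to 16 for SCI with CDTX (8 without SCI+CDTX array 4), 18 to 22 for SCI without CDTX and 13 to 21 for the interaction. Of 75 named results, 17 lost their call in at least 1 such fit, and none turned.

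Directions turned for CDTX in sham mice under median scaling (Tgfb2 0.18, Bmpr1a 0.29, Tgfb3 0.15) and with the score (Tgfbr1 -0.09, Smad1 ILMN_2671572 -0.13, Chrd 0.65, Bmp1 ILMN_2989955 2.24). With the score they also turned for SCI with CDTX (Tgfb2 0.39, Bmpr1a 0.67, Tgfbr1 0.45, Smad1 ILMN_2671572 0.04, Chrd -0.13, Bmp1 ILMN_2989955 -0.60, Ltbp1 ILMN_2765452 -0.16) and for the interaction (Bmp1 ILMN_1218116 -0.31, Tgfb2 0.28, Bmpr1a 0.30, Chrd -0.34, Smad3 -0.25).

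The replicate numbers did not pair the arrays: same-numbered arrays of different groups correlated at -0.271 to 0.377, with 3 of 21 pairs over 0.1. A replicate block gave 21, 25, 12, 22 and 17 calls for CDTX in SCI mice, CDTX in sham mice, SCI with CDTX, SCI without CDTX and the interaction. Without background correction, with no detection filter, a stricter one, with trended and robust variances, or with only the compared groups, no named direction turned, and 5, 8, 0, 0 and 3 named calls were lost; the stricter filter kept 69 of the 75 to test. The number of arrays limits the precision.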
